A study of Bos taurus with 2 samples.

Results

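A set of 9 genes that make DNA precursors or work at the replication fork, TYMS, TK1, RRM1, RRM2, PCNA, FEN1, RFC4, GINS2 and UHRF1, was chosen by name from the deposited gene list. They were 9 of 21867 genes in all, each was found there once, and all 9 passed the filter on low counts in every comparison below. The study sequenced cultured skeletal muscle satellite cells, the resident progenitors of muscle fibres, from 1 male Holstein calf aged 2 weeks. The cells were released from the longissimus muscle with pronase, and were kept for 1 week in growth medium made of DMEM with 10% FBS (fetal bovine serum). No treatment was given, and the isolation relied on differential centrifugation with no sort described, so other cells of muscle could be present. Both libraries, called library 1 and library 2, were prepared from this same culture with the 10x Genomics 3ʹ kit, in which a barcode names the cell and a unique molecular identifier (UMI) lets each captured RNA be counted once.

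DNA synthesis needs a balanced supply of deoxynucleotides, and cells raise the enzymes that make them as they enter S phase, the phase of the cell cycle in which the genome is copied. At the fork, an unwinding helicase opens the duplex, a sliding clamp holds the polymerases on the template, and nucleases and ligase join the short pieces of the lagging strand. Many of these genes are transcribed under the control of E2F factors, and cultured myoblasts shut them down when they leave the cell cycle and fuse. Proliferation and differentiation therefore appear side by side in a culture of satellite cells.

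Library 1 held 9939 cells and 145631299 UMIs, and library 2 held 9157 cells and 137818568 UMIs, with medians of 14626 and 15206 UMIs per cell. The 2 libraries shared 27 cell barcodes. The authors divided the cells into 15 clusters by expression, and the cluster of each cell was recovered from the deposited cluster averages. Levels below are UMIs of a gene per 10000 UMIs of all genes, summed over the cells of a cluster in each library, and a mean ± SD is over n = 2 libraries. Both libraries came from the same culture, so SDs and p-values describe library preparation and sequencing and leave out the spread between animals. The clusters were also built from the counts of these same cells, these genes included, so a test between clusters is no independent evidence that they differ. Clusters 7, 13, 14 and 15 held 13.9% of the cells but 1.66% of the UMIs, and the 9 genes together had 237 UMIs in cluster 15, so levels there are coarse. The immune marker PTPRC was at or near 0 in every cluster, and the endothelial markers CDH5 and PECAM1 summed to at most 0.0143 UMIs per 10000, in cluster 9. The pericyte markers NOTCH3 and MCAM summed to 0.369 over all cells and to at most 1.71, in cluster 7. Whether pericytes were present was not tested.

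The 9 genes were together highest in clusters 11 and 6 and lowest in cluster 12. Their summed level was 16.9 and 16.3 in libraries 1 and 2 of cluster 11, and 16.1 and 15.4 in cluster 6. Clusters 9, 2 and 4 followed at 12.9 ± 0.19, 12.2 ± 0.22 and 11.9 ± 0.21, and cluster 5 had 9.78 ± 0.17. The lowest 4 were cluster 3 at 3.65 ± 0.075, cluster 1 at 3.38 ± 0.021, cluster 8 at 2.93 ± 0.041 and cluster 12 at 2.08 ± 0.075. The ranges of the libraries overlapped in 2 of the 14 pairs of neighbours in this order. Clusters 6 and 11 held 12.7% of the cells, 16.5% of all UMIs and 28.3% of the UMIs of the 9 genes. By gene, their share of UMIs ran from 21.4% for TYMS to 34.5% for UHRF1. Clusters 2, 4, 5, 6, 9 and 11 together held 60.8% of all UMIs and 84.1% of those of the 9 genes, and within this RRM2 reached 90.2%.

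Levels of 2 phase lists without the 9 genes place these clusters in the cell cycle. A list of S phase genes, such as MCM5 and PRIM1, was at 30.7 ± 0.91 UMIs per 10000 in cluster 11 and at 30.6 and 29.3 in cluster 6, above its 22.4 ± 0.47 in cluster 2 and 22.4 ± 0.45 in cluster 4. A list of G2/M genes, such as CDK1 and TOP2A, had the opposite order, with 155.5 ± 3.5 in cluster 2 and 142.2 ± 4.2 in cluster 4 against 64.2 ± 1.9 in cluster 6 and 58.4 ± 1.3 in cluster 11. Cluster 12 had the lowest S phase list, 5.10 ± 0.22, and the highest level of MYOG, the regulator of terminal myogenic differentiation, at 18.6 ± 0.78. Over the 15 clusters the summed level of the 9 genes had a Pearson r of 0.975 with the S phase list and of 0.784 with the G2/M list on the log2 scale. By gene, r with the S phase list ran from 0.798 for GINS2 to 0.971 for FEN1. RRM1 had 0.894 with both lists. These points share libraries and clustering, and the values are a description.

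**Figure D1:**
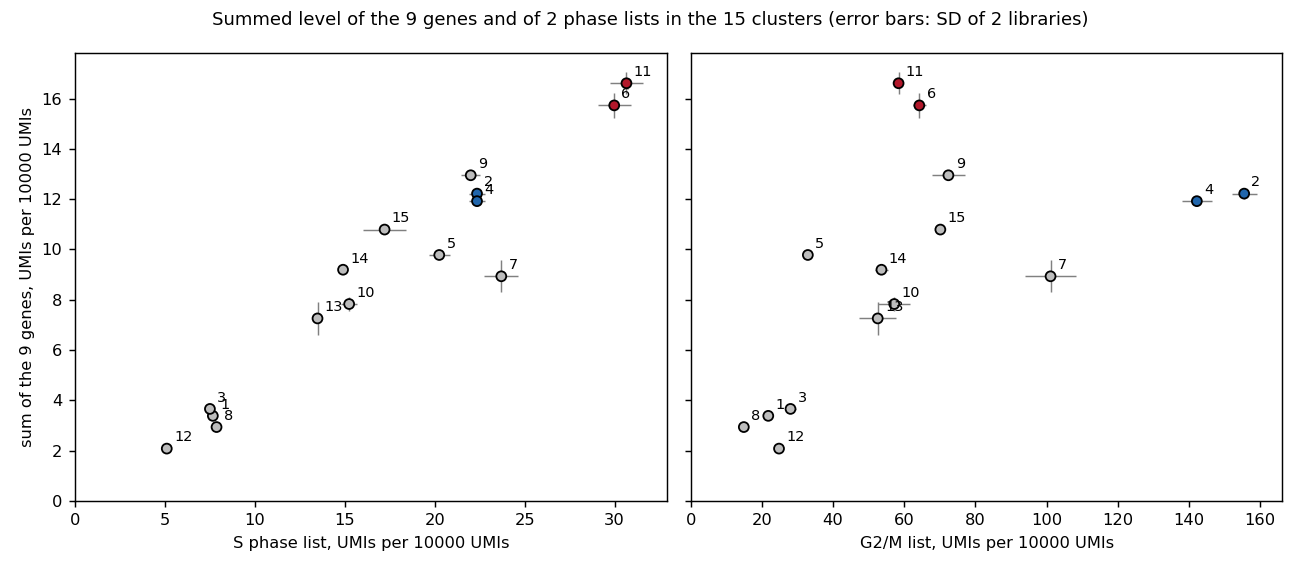
Summed level of the 9 genes (vertical axis, UMIs per 10000 UMIs) against the summed level of an S phase list (left) and a G2/M list (right) in the 15 clusters, as means with the SD of 2 libraries as bars and cluster numbers beside the points, clusters 6 and 11 in red and 2 and 4 in blue. Clusters 11 and 6 lie highest on both the vertical axis and the S phase axis, while clusters 2 and 4 lie far to the right on the G2/M axis with a summed level of the 9 genes near 12.

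Among the enzymes of nucleotide supply, TYMS encodes thymidylate synthase, which makes dTMP from dUMP with a folate as the carbon donor. Its level was 2.02 and 2.06 UMIs per 10000 in cluster 2, 2.05 and 2.01 in cluster 11, 1.96 and 1.95 in cluster 4, and 1.90 and 1.89 in cluster 6. The libraries of clusters 2 and 11 overlapped, and all 4 clusters lay far above cluster 12, with 0.449 and 0.486. TYMS was also kept at 0.996 ± 0.053 in cluster 1 and 0.990 ± 0.0082 in cluster 3. Its highest level was 4.37 times its lowest, the narrowest range of the 9 genes.

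TK1, the cytosolic thymidine kinase that salvages thymidine, was highest in cluster 11, at 1.35 and 1.33, followed by cluster 6 at 1.16 and 1.14 and cluster 9 at 1.05 and 1.05. Clusters 4 and 2 lay lower, at 0.886 ± 0.0019 and 0.836 ± 0.0038, and cluster 12 was lowest at 0.151 ± 0.0098. Libraries of clusters 11, 6, 4 and 2 did not overlap one another, with clusters 11 and 6 above 4 and 2, an order that TYMS did not have. With 2 libraries per cluster such separation can also occur without a difference. In the main edgeR tests below, TK1 was not called between clusters 6 and 11 or between clusters 2 and 4. Its highest level was 8.89 times its lowest.

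RRM1 and RRM2 encode the large and the small subunit of ribonucleotide reductase, the enzyme that reduces ribonucleotides to deoxyribonucleotides. RRM1 was at 2.26 and 2.12 in cluster 2, 2.24 and 2.00 in cluster 11, 2.10 and 1.92 in cluster 6, and 2.06 and 1.88 in cluster 4. These 4 clusters overlapped with their neighbours, and RRM1 was the 1 gene of the 9 that was not lowest in cluster 12, with 0.663 ± 0.012 there and 0.495 ± 0.0062 in cluster 8. RRM2 was at 2.86 and 2.53 in cluster 11, 2.57 and 2.46 in cluster 9, and 2.50 and 2.31 in cluster 6. It was at 1.54 and 1.46 in cluster 4 and 1.47 ± 0.085 in cluster 2, below every library of the first group. In clusters 3, 8, 1 and 12 RRM2 lay between 0.203 ± 0.012 and 0.145 ± 0.0073. The ratio of the highest to the lowest level was 18.6 for RRM2 and 4.43 for RRM1, so the subunits of 1 enzyme had very different ranges.

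Of the fork genes, PCNA encodes the sliding clamp. Its level was 4.25 and 4.25 in cluster 11 and 4.30 and 4.09 in cluster 6, which overlapped, and 3.00 ± 0.00055 in cluster 4 and 2.93 ± 0.051 in cluster 2. Cluster 5 was at 2.52 ± 0.088 and cluster 12 at 0.331 ± 0.024, a ratio of highest to lowest of 12.8. RFC4, a subunit of the clamp loader that places PCNA on DNA, was highest in cluster 6, at 0.657 and 0.630, then in cluster 11 at 0.607 and 0.612, cluster 2 at 0.578 and 0.538 and cluster 4 at 0.555 and 0.527. Its ratio of highest to lowest was 6.20.

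FEN1, the flap endonuclease that trims the pieces of the lagging strand, was at 0.706 and 0.675 in cluster 6 and 0.612 and 0.636 in cluster 11. It was at 0.448 ± 0.025 in cluster 2, 0.404 ± 0.0045 in cluster 4 and 0.0444 ± 0.0085 in cluster 12, a ratio of highest to lowest of 15.6. GINS2, a subunit of the GINS complex of the replicative helicase, was at 0.549 and 0.548 in cluster 11 and 0.531 and 0.501 in cluster 6. In cluster 9 it was at 0.473 and 0.535, a range that overlapped with cluster 6. GINS2 had 0 UMIs in library 1 of cluster 15, where a count of 0 among 95317 UMIs allows up to 0.315 per 10000, and 9 of its 14 neighbouring pairs of clusters overlapped, the most of the 9 genes.

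UHRF1, which recognises hemimethylated DNA behind the fork and brings the maintenance methyltransferase there, was highest in cluster 11 at 2.40 and 2.37 and in cluster 6 at 2.24 and 2.22. Cluster 7 came next at 2.02 and 1.67, then cluster 9 at 1.49 ± 0.041 and cluster 2 at 1.38 ± 0.017. In cluster 12 it was at 0.117 ± 0.0065, and its ratio of highest to lowest, 20.4, was the widest of the 9. In the shallow cluster 7 the genes did not keep together, since it was the third of the 15 clusters for UHRF1 and among the lowest 3 for GINS2, at 0.0994 ± 0.0014. GINS2 had 9 and 12 UMIs there in libraries 1 and 2, so this SD understates the counting error. Its libraries there overlapped those of clusters 8 and 3, so the rank is loose.

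**Figure D2:**
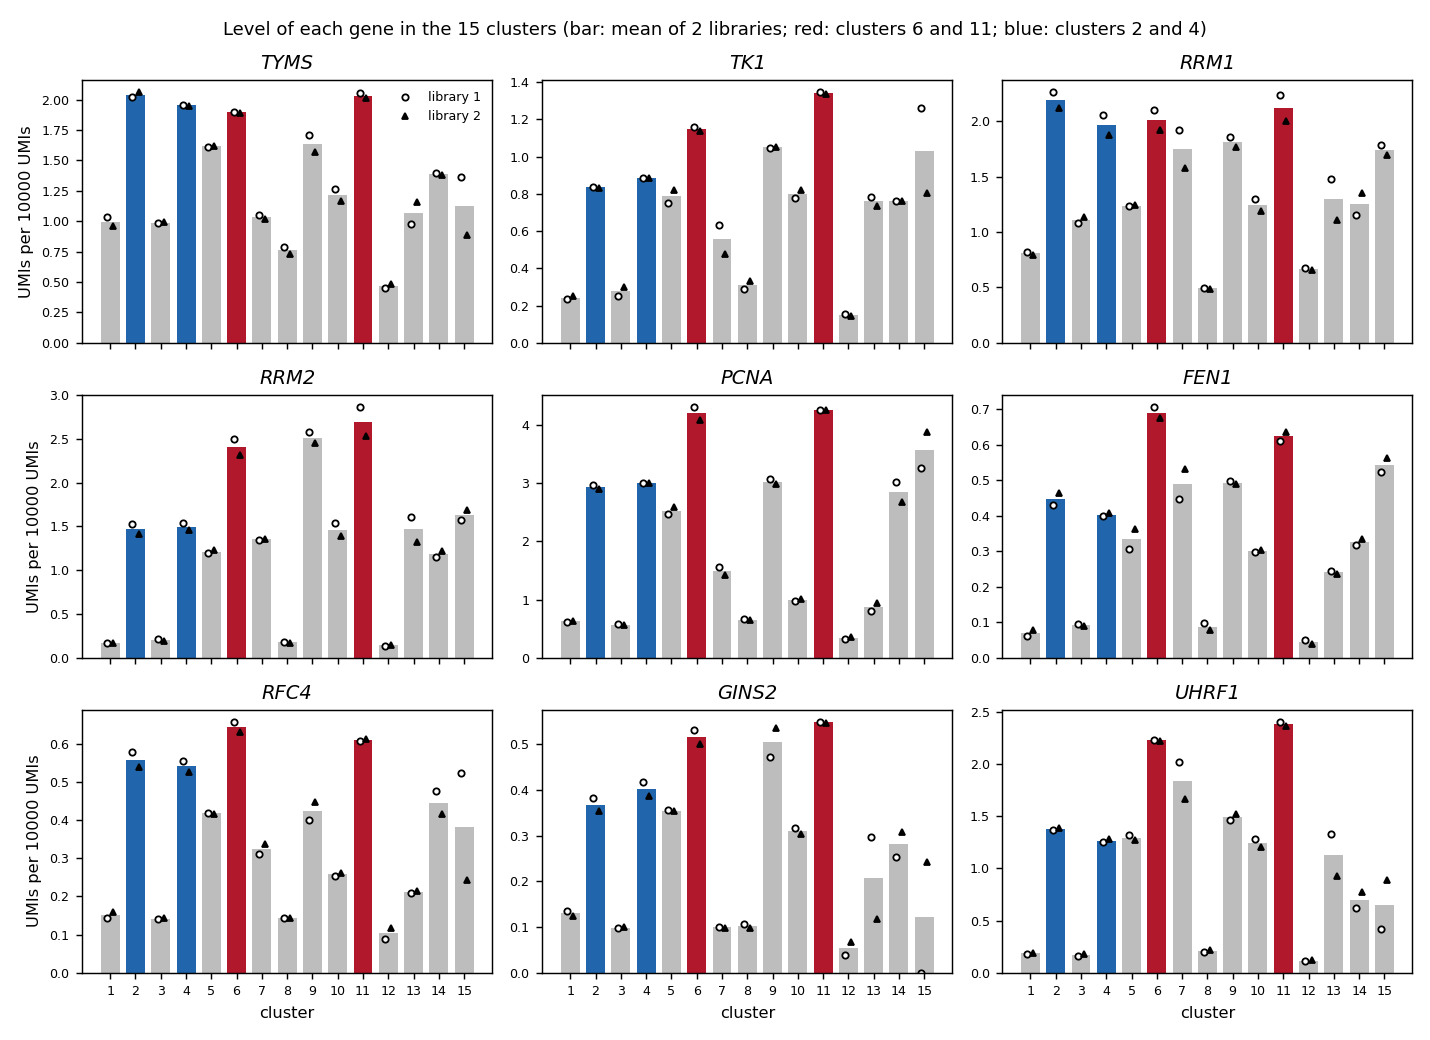
Level of each of the 9 genes (UMIs per 10000 UMIs, axis from 0, a scale of its own for each gene) in the 15 clusters, as the mean of 2 libraries (bars) with library 1 (circles) and library 2 (triangles), clusters 6 and 11 in red and 2 and 4 in blue. Red bars stand above blue ones for TK1, RRM2, PCNA, FEN1, GINS2 and UHRF1, and narrowly so for RFC4. Red and blue bars are about level for TYMS and RRM1.

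Over the 15 clusters, the 36 pairs of the 9 genes had Pearson r values of log2(UMIs per 10000 + 0.1) from 0.693, for RRM1 with GINS2, to 0.972, for PCNA with RFC4, with a median of 0.867. RRM1 and RRM2 had an r of 0.879, while RRM2 had 0.969 with TK1 and 0.959 with FEN1. Of 10062 genes with at least 500 UMIs, the pattern of PCNA was nearest to that of RFC3, another subunit of its loader (r = 0.990), then NSMCE4A (0.983) and RFC4. UHRF1 was nearest to MCM4 (0.988), ATAD2 (0.982) and MCM2 (0.981). TK1 was nearest to GINS1 (0.985), RRM2 and RMI1 (0.965), and RRM2 was near to TK1 and TRIP13 (0.962). FEN1 was near to POLA2 (0.975) and FBXO5 (0.965), and RFC4 to PCNA, LRR1 (0.966) and RFC3 (0.962). TYMS was nearest to CENPU (0.962), DTYMK (0.950), the kinase that acts next on its product dTMP, and CENPM (0.937). RRM1 was nearest to CSE1L (0.964), FANCI (0.950) and LMNB1 (0.942), and GINS2 to SPR (0.943), DTYMK (0.932) and CENPU (0.924). All of these r values share the same 15 points, libraries and clustering. With a pseudocount of 1 in place of 0.1, 1 of the 3 nearest genes remained for RRM2, 2 of 3 for PCNA, FEN1, RFC4, GINS2 and UHRF1, and all 3 for TYMS, TK1 and RRM1.

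Clusters 6 and 11 were first compared with all other cells. All 9 genes were higher there by edgeR's quasi-likelihood test, adjusted after Benjamini-Hochberg, at an adjusted p under 0.05, a call that 13.4% of the 13105 genes tested also received in this direction. UHRF1 rose from 0.850 and 0.868 in the other cells to 2.29 and 2.27, a log2 fold change of 1.43 with a 95% interval of 1.34 to 1.51. RRM2 rose from 1.05 and 0.999 to 2.62 and 2.38, which was 1.31 on the log2 scale, and FEN1 rose by 1.30. TYMS and RRM1 had the smallest log2 fold changes, 0.48 (interval 0.39 to 0.57) and 0.56 (0.41 to 0.71). The median of the 9 genes was 0.995 on the log2 scale, beside 0.0055 over all genes tested.

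The comparison of clusters 6 and 11 with clusters 2 and 4 asked which of the genes fell between the cells with most S phase and the cells with most G2/M transcripts. By the same edgeR test, 7 of the 9 genes were higher in clusters 6 and 11, none was lower, and TYMS and RRM1 were not called. Of the 12109 genes tested, 10.7% were called higher and 10.1% lower. The median log2 fold change of the 9 genes was 0.51, beside 0.0093 over all genes tested.

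UHRF1 was at 2.29 and 2.27 in clusters 6 and 11 and at 1.31 and 1.34 in clusters 2 and 4, a log2 fold change of 0.79 (SE 0.036). RRM2 was at 2.62 and 2.38 against 1.54 and 1.43, or 0.77 (SE 0.062) on the log2 scale. FEN1 was at 0.675 and 0.662 against 0.416 and 0.438, with a log2 fold change of 0.66 (SE 0.049). Libraries of the compared groups did not overlap for any of these genes. With 2 sums against 2 this can also occur without a difference, and its share over all genes is not given. PCNA, TK1 and GINS2 rose by 0.52 (SE 0.038), 0.51 (SE 0.039) and 0.47 (SE 0.057) on the log2 scale, with edgeR adjusted p-values of 0.000456, 0.000565 and 0.00337. RFC4 rose least, from 0.567 and 0.533 to 0.640 and 0.624, a log2 fold change of 0.21 (SE 0.051) with an edgeR adjusted p of 0.0332. This call for RFC4 was lost with DESeq2 (0.21, adjusted p = 0.0776), without the filter on low counts (0.21, adjusted p = 0.0692) and with cells assigned to clusters by profile (0.080, adjusted p = 0.305).

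TYMS was at 1.95 and 1.93 in clusters 6 and 11 and at 1.99 and 2.01 in clusters 2 and 4, a log2 fold change of -0.032 with an interval of -0.12 to 0.053 (edgeR adjusted p = 0.574). RRM1 was at 2.15 and 1.95 against 2.17 and 2.01, which was -0.015 with an interval of -0.17 to 0.14 (edgeR adjusted p = 0.900). Both intervals lie below that of RRM2, 0.61 to 0.92, and below that of TK1, 0.41 to 0.60. Genes were not compared with each other in a test, but the log2 fold change of RRM2 was 0.77 in library 1 and 0.74 in library 2, and that of RRM1 was -0.012 and -0.042. By these estimates the subunits of ribonucleotide reductase parted between these clusters, and so did the synthase and the kinase that make dTMP. This is a description of separate estimates and not a tested difference between genes.

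**Figure D3:**
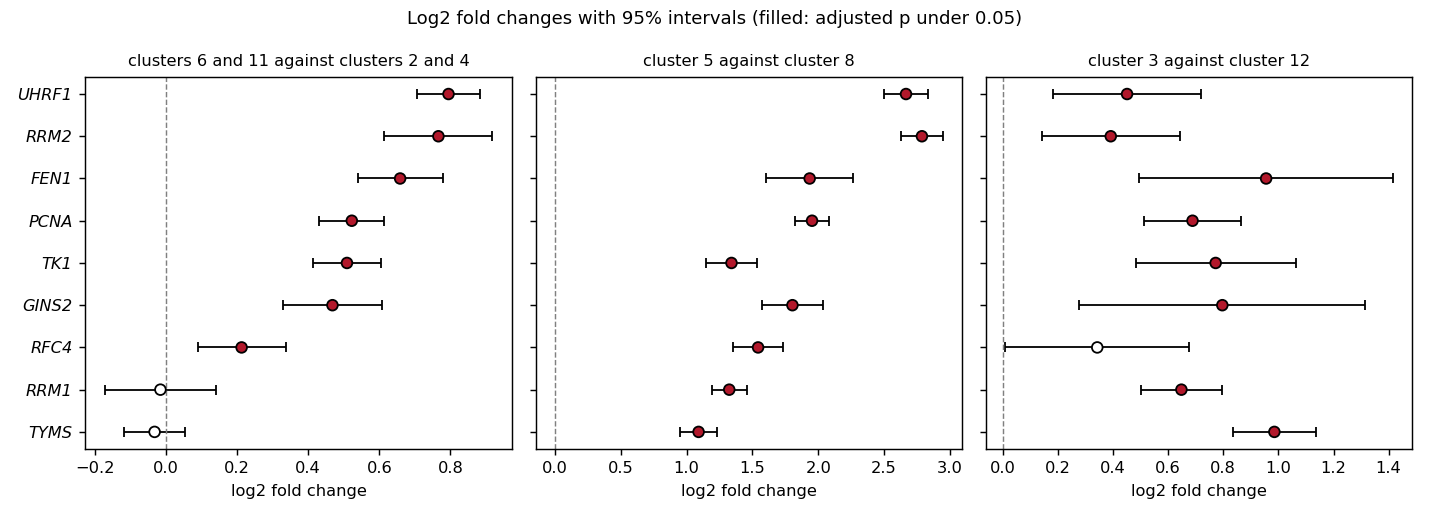
Log2 fold changes of the 9 genes with their 95% intervals in 3 comparisons (horizontal axes differ in range, dashed line at 0, filled points called at an adjusted p under 0.05). TYMS and RRM1 lie at 0 between clusters 6 and 11 and clusters 2 and 4, whereas all 9 genes lie above 1 between clusters 5 and 8, and 8 of 9 are called between clusters 3 and 12.

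The S phase list, which has 35 entries for 34 gene symbols, moved with these results. Of its entries, 25 were higher and 2 lower in clusters 6 and 11 than in clusters 2 and 4. The G2/M list moved against these results, with 51 of 54 genes lower. Over all genes tested, 10.7% were called higher and 10.1% lower. How far the levels of the 9 genes rest on the share of cells in each phase was not tested.

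Other genes of the same pathways varied in this comparison, where 10.7% of all genes tested were called higher and 10.1% lower. Many genes of the lists below are also on the S phase list, among them PRIM1, POLA1, CDC45, MCM2, MCM4, CDCA7 and CDC6. Their values are therefore not independent of that list. The nucleotide synthesis list had 13 of 37 genes higher and none lower in clusters 6 and 11 against clusters 2 and 4, with a median log2 fold change of 0.18. IMPDH1, an enzyme of guanine nucleotide synthesis, was at 0.51, with 0.248 and 0.293 UMIs per 10000 against 0.178 and 0.203. At the other end, MTHFD2 at -0.18 and RRM2B, an alternative small subunit of ribonucleotide reductase, at -0.62 were not called, and RRM2B had 389 UMIs in all cells.

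The replication fork list had 17 of 39 genes higher and 5 lower, with a median log2 fold change of 0.21. Its lower calls were near the share over all genes, 10.1%, so their number is no result about the list. PRIM1, the catalytic subunit of primase with 409 UMIs in all cells, was at 0.995 and ATAD5, which unloads PCNA, at 0.84. POLA1, the catalytic subunit of DNA polymerase alpha, was at -0.37, and CDC45, a partner of GINS in the helicase, at -0.29, and both were called lower. GINS2 and CDC45 belong to 1 complex and were called in opposite directions, and they were not compared with each other in a test. All 6 MCM genes, the core of the helicase, were higher, from 0.28 for MCM7 and 0.42 for MCM2 to 0.59 for MCM4 and 0.92 for MCM3.

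Of the genes that copy chromatin and its marks, with 17 entries for 16 symbols, 9 entries were higher and 2 lower. The lower calls were again near the share over all genes, 10.1%. CDCA7 was at 1.44 and CHAF1A, the large subunit of the chromatin assembly factor that binds PCNA, at 1.05. ASF1B, a histone chaperone, was at -0.65 and SUV39H1, a histone methyltransferase, at -0.33, both called lower. The list of G1/S control had 10 of 22 genes higher and 6 lower. The licensing factors CDC6 and CDT1 had the highest values, 2.63 and 2.01, with 157 UMIs of CDT1 in all cells, and the cyclin CCNA2 and the inhibitor CDKN1C the lowest, -1.25 and -1.02.

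Clusters 6 and 11 differ in MYOD1, the myogenic determination factor, at 6.07 and 5.44 in cluster 6 and 1.30 and 1.41 in cluster 11, and so do clusters 2 and 4, at 7.02 and 6.42 against 2.71 and 2.72. Between clusters 6 and 11, none of the 9 genes was called by edgeR's quasi-likelihood test, adjusted after Benjamini-Hochberg, where 16.5% of 11041 genes were. DESeq2 also called none of the 9, beside 590 genes higher and 503 lower among all genes. The values nearest to a call were FEN1, with a log2 fold change of 0.21 (interval 0.061 to 0.36), and TK1, with -0.16 (interval -0.27 to -0.045). Both libraries of a cluster come from the same preparations as those of the others, and with the library as a block 31.5% of genes were called. In that fit TK1 (-0.16, edgeR adjusted p = 0.00247) and RRM2 (-0.10, adjusted p = 0.0262) were lower in cluster 6, and FEN1 (0.21, adjusted p = 0.00135) and RFC4 (0.14, adjusted p = 0.0485) were higher. Cells with high doublet scores made up 19.2% of cluster 6 and 5.68% of cluster 11. Without them FEN1 (0.36, edgeR adjusted p = 0.00782), RFC4 (0.26, adjusted p = 0.0314) and PCNA (0.20, adjusted p = 0.0237) were higher in cluster 6, while the log2 fold change of RRM2 turned to 0.056. The share of all genes called without these cells is not given, so these calls cannot be set against a background. With these cells kept, 8.75% of genes were called higher in cluster 6 and 7.72% lower.

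Between clusters 2 and 4, none of the 9 genes was called by edgeR's quasi-likelihood test, adjusted after Benjamini-Hochberg, where 30.2% of 11561 genes were. DESeq2 also called none of the 9, beside 1108 genes higher and 1042 lower among all genes. UHRF1 had the value nearest to a call, 0.11 (interval 0.010 to 0.21, edgeR adjusted p = 0.0927). Log2 fold changes ran from -0.14 for GINS2 to 0.14 for RRM1. With the library as a block, where 47.1% of genes were called, RRM1 (0.14, edgeR adjusted p = 0.00118), FEN1 (0.14, adjusted p = 0.0278) and UHRF1 (0.11, adjusted p = 0.00942) were higher in cluster 2, and TK1 (-0.099, adjusted p = 0.0278) and GINS2 (-0.14, adjusted p = 0.0224) were lower.

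The drop from S phase to G2/M clusters was also compared between these levels of MYOD1, as the log2 fold change of cluster 6 against 2 minus that of cluster 11 against 4. None of the 9 genes was called by edgeR's quasi-likelihood test, adjusted after Benjamini-Hochberg, where 9.28% of 11720 genes were. DESeq2 also called none of the 9, beside 354 genes higher and 270 lower among all genes. UHRF1 had the value nearest to a call, -0.16 (interval -0.29 to -0.035). With the library as a block, where 23.4% of genes were called, the difference was -0.16 for UHRF1 (edgeR adjusted p = 0.00678) and -0.17 for RRM1 (adjusted p = 0.00231).

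Clusters 5 and 8 both had low MYOG, at 0.119 ± 0.0037 and 0.108 ± 0.011, and the G2/M list was at 32.9 ± 0.25 in cluster 5 and 14.9 ± 0.026 in cluster 8. All 9 genes were higher in cluster 5 by edgeR's quasi-likelihood test, adjusted after Benjamini-Hochberg, a call that 16.3% of 10948 genes received in this direction. RRM2 was at 1.21 ± 0.022 in cluster 5 and 0.176 ± 0.0026 in cluster 8, a log2 fold change of 2.79 (SE 0.068). UHRF1 followed at 2.67 (SE 0.071), with 1.32 and 1.27 against 0.196 and 0.213. PCNA, FEN1 and GINS2 were at 1.95, 1.93 and 1.80 on the log2 scale, and RFC4, TK1 and RRM1 at 1.54, 1.34 and 1.32. TYMS had the smallest difference, 1.09 (SE 0.060), with 1.61 and 1.62 against 0.788 and 0.731. In this comparison all 35 entries of the S phase list were also higher in cluster 5.

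Clusters 3 and 12 both carried muscle differentiation markers, with MYOG at 6.60 and 6.76 in cluster 3 and 18.1 and 19.2 in cluster 12, and 8 differentiation markers summing to 69.3 ± 1.1 and 192.7 ± 4.2. Levels of the 9 genes were low in both, yet 8 of 9 were higher in cluster 3 by edgeR's quasi-likelihood test, adjusted after Benjamini-Hochberg, beside 15.6% of 10811 genes in this direction. TYMS had the largest value, from 0.449 and 0.486 in cluster 12 to 0.984 and 0.995 in cluster 3, a log2 fold change of 0.99 (interval 0.83 to 1.14). FEN1 was at 0.96, GINS2 at 0.80, TK1 at 0.77, PCNA at 0.69, RRM1 at 0.65, UHRF1 at 0.45 and RRM2 at 0.39. RFC4 was not called, at 0.34 (interval 0.0098 to 0.68, edgeR adjusted p = 0.105). It was called with the library as a block (0.35, edgeR adjusted p = 0.0478), a fit that called 46% of all genes in either direction. It was also called with cells assigned by profile (0.54, edgeR adjusted p = 0.0320), where the share over all genes is not given. DESeq2 called 5 of the 9 higher, and over all genes it called 845 higher where edgeR had called 1687. RRM2, GINS2 and UHRF1 lost their calls with DESeq2 (adjusted p = 0.263, 0.116 and 0.218). The order of these estimates thus differed from that between clusters 5 and 8, where RRM2 had the largest value and TYMS the smallest. The order between clusters 3 and 12 is loose, and genes were not compared with each other in a test. FEN1 (interval 0.50 to 1.42) and GINS2 (0.28 to 1.32) had 55 and 66 UMIs in cluster 12. Over 9 settings, TYMS ran from 0.97 to 1.08, FEN1 from 0.94 to 1.26, UHRF1 from 0.435 to 1.03 and RRM2 from 0.38 to 0.85. Leaving out cells under 2000 UMIs was among these settings and removed no cell of clusters 3 and 12.

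Single cells were compared after each had been thinned to 5000 UMIs, which left 15996 of 19096 cells and none of clusters 13 and 15. At this depth cells of cluster 11 held at least 1 UMI of 4.83 of the 9 genes on average, those of cluster 6 of 4.68, those of cluster 9 of 4.03, and those of clusters 2 and 4 of 3.84 and 3.77. Cells of clusters 3, 1, 8 and 12 held 1.42, 1.39, 1.21 and 0.858 of them. The libraries gave close means, such as 4.92 and 4.71 in cluster 11. Of 2418 cells in clusters 6 and 11, 57.8% held 5 or more of the genes, against 33.4% of 3873 cells in clusters 2 and 4 and 1.63% of 6338 cells in clusters 1, 3, 8 and 12. All 9 genes were found together in 10 cells, 9 of them in clusters 6 and 11. Of the 3733 cells with 5 or more, 94.5% lay in clusters 2, 4, 5, 6, 9 and 11. These clusters held 2109, 1764, 1639, 1574, 1080 and 844 of the 15996 thinned cells.

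**Figure D4:**
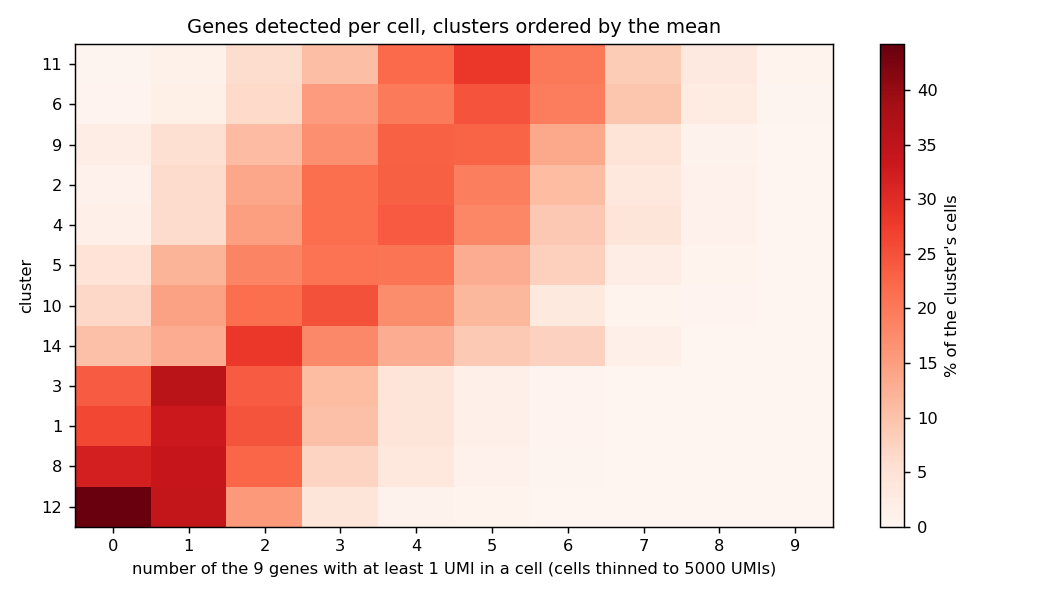
Share of each cluster's cells (colour, %) by the number of the 9 genes with at least 1 UMI in a cell thinned to 5000 UMIs, with clusters ordered by their mean and clusters 7, 13 and 15, with 12 cells or fewer at this depth, left out. The bulk of cells lies at 4 to 6 genes in clusters 11 and 6, at 3 to 5 in clusters 2 and 4, and at 0 to 2 in clusters 3, 1, 8 and 12.

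Shares of cells with a UMI followed the levels. PCNA was found in 86.0% of cells in clusters 6 and 11 (exact 95% binomial interval 84.5 to 87.3), in 71.1% of cells in clusters 2 and 4 (69.6 to 72.5) and in 14.5% of cells in cluster 12 (11.8 to 17.6). Intervals cover counting error only. Free RNA in a droplet can add UMIs to cells that do not express a gene, its part in these shares was not tested, and cluster 12, with the highest MYOG, is given for comparison. RRM2 was found in 68.2%, 46.5% and 5.55% of cells of these 3 sets. UHRF1 was found in 66.3%, 43.9% and 3.75%. TYMS was found in 62.3%, 63.4% and 18.9%, and RRM1 in 64.0%, 62.6% and 26.6%. The share of RRM1 in cluster 8, 21.6% (interval 19.3 to 24.0), was no higher than its share in cluster 12, while RRM2 was found in 7.14% of cells of cluster 8. TK1, FEN1, RFC4 and GINS2 were found in 45.6%, 28.7%, 28.0% and 23.7% of cells in clusters 6 and 11, and in 6.53%, 2.28%, 5.71% and 1.96% of cells in cluster 12. Median depth before thinning was 17970 UMIs per cell in cluster 6 and 19110 in cluster 12. Without thinning, over 2420, 3887 and 627 cells, PCNA was found in 99.4%, 95.1% and 39.6% of cells of the 3 sets, RRM2 in 95.7%, 80.3% and 17.5%, and TYMS in 96.3%, 95.5% and 48.3%. Thinned to 2000 UMIs, PCNA was found in 57.2%, 43.8% and 5.90% and RRM2 in 39.6%, 24.5% and 2.71%.

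Within clusters, cells with more UMIs of the 9 genes also had more of the S phase list. Over the 15996 thinned cells the Pearson r of the 2 sums was 0.717, and it was 0.521 over 1764 cells of cluster 4, 0.446 over 2109 cells of cluster 2, 0.596 over 1639 cells of cluster 5 and 0.364 over 844 cells of cluster 11. Across all thinned cells, the G2/M list gave an r of 0.362. Only cluster 4 had a negative value, -0.311, and cluster 2 had 0.133. The highest value, 0.4 for cluster 12, lay above its 0.299 with the S phase list. Cluster 3 likewise had 0.396 against 0.383. Single genes gave weaker values with the S phase list than their sum. In clusters 2 and 4 TYMS had 0.020 and 0.038, where PCNA had 0.315 and 0.423 and RRM2 0.314 and 0.320. TYMS was not the sparser gene, with means of 1.05 and 1.02 UMIs per thinned cell there against 0.682 and 0.739 for RRM2. The cause was not tested. Cells of 1 library share its preparation, and these values are descriptions with no test.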

How the data were processed

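Per the labels, alignment to ARS-UCD1.2, UMI counting and cell calling were done by the authors in Cell Ranger 3.0.2. By their methods it also joined both libraries at equal mapped depth. The deposited counts are whole numbers of UMIs per gene and cell, with no further normalization, and the library of a cell was read from the number that ends its barcode. The authors also deposited averages per gene over 15 clusters, scaled to a common total per cell, beside their own fold changes and p-values, which were not used. These averages convert to whole UMI sums, from which the cluster of all 19096 cells was deduced in 30 rounds, and none of 252240 sums of a gene and a cluster then differed.

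UMIs were summed per cluster set and library and compared as 2 sums against 2 with edgeR 4.0.16 (R 4.3.3), using TMM, filterByExpr, glmQLFit and glmQLFTest, with Benjamini-Hochberg adjustment over all genes tested and calls at 0.05. The script was tested on simulated data. Sums of 1 library belong together, and the library ratios of compared sums had correlations from 0.396 to 0.693 over genes that reached 20 UMIs in every sum, so the library as a block was an alternative. Other alternatives were RLE factors, no TMM, DESeq2 1.42.0, no filter, cells under 2000 UMIs left out, cells assigned by profile, the other clusters weighted equally, thinning to 2000 UMIs, each library left out, and 2 settings of the likeness measure. Scrublet's automatic thresholds called 0 and 6 cells, so the 8% of cells with the highest scores in each library were left out instead, an alternative chosen after seeing the data; doublets were otherwise kept.

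The 9 genes, the related lists and the clusters compared were chosen with earlier results of these data known. Named were the 9 genes, the 2 highest and 2 lowest genes of each related list by the log2 fold change of clusters 6 and 11 against 2 and 4, and the 3 genes most like each of the 9, apart from some that are not reported here. NME1, TK2, TYMP, ADSS2 and POLD4 were not among the gene symbols, and lists leave out the 9 genes. In another assembly (ARS-UCD2.0), TYMS, RRM1, FEN1, RFC4 and UHRF1 overlap a neighbouring gene, and the counts were used as deposited. No sequence was used here.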

Additional observations from a re-analysis of the deposited data

How the results depend on the processing

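For clusters 6 and 11 against all other cells and for cluster 5 against cluster 8, all 9 genes kept their calls and directions under every alternative with a test. For clusters 6 and 11 against clusters 2 and 4, 6 of the 7 calls held under each of them and RFC4 lost its call as given above, while leaving out doublets turned the uncalled values of TYMS to 0.0044 and of RRM1 to 0.025. Leaving out cells under 2000 UMIs removed no cell of clusters 1 to 6 and 8 to 12. It therefore repeated the main result in every comparison but that with all other cells. Between clusters 6 and 11, the number of the 9 genes called lower became 1 with no TMM, 2 with the replicate block and 1 with cells assigned by profile. TK1 was among them each time (edgeR adjusted p = 0.019, 0.00247 and 0.0273). The number called higher became 2 with the replicate block and 3 with doublets left out. Shares of all genes called with no TMM, by profile and without doublets are not given. Uncalled log2 values there changed sign for PCNA with no TMM (-0.021), for TYMS (0.018), RRM1 (0.063), RRM2 (0.056), GINS2 (0.12) and UHRF1 (0.11) with doublets left out, and for RRM1 (0.0052), PCNA (-0.0074) and GINS2 (0.0067) by profile. Between clusters 2 and 4, the replicate block called 3 of the genes higher and 2 lower, in a fit that called 47.1% of all genes in either direction. Assignment by profile called 2 higher, FEN1 and UHRF1, and its share over all genes is not given here either. It turned TK1 (0.010), RRM2 (0.078) and PCNA (0.031). In cluster 3 against cluster 12, DESeq2 called 5 of the 9 genes higher. In the difference of differences, 1 gene was lower with no TMM, 2 with the replicate block and 1 by profile. UHRF1 was among them each time (edgeR adjusted p = 0.023, 0.00678 and 0.0175). The replicate block called 23.4% of all genes here in either direction, and the shares with no TMM and by profile are not given. Values turned for FEN1 with no TMM (-0.0040), for TK1 (0.033) and RRM2 (0.064) with doublets left out, and for PCNA (-0.051), FEN1 (-0.23) and RFC4 (-0.056) by profile. The replicate block, which pairs the sums of a library, changed no call of the 9 genes beyond those given and raised counts over all genes. It moved those called higher and lower from 1757 and 1566 to 3228 and 2881 in clusters 6 and 11 against all other cells, from 1292 and 1225 to 2833 and 2516 against clusters 2 and 4, from 966 and 852 to 1827 and 1649 between clusters 6 and 11, from 1679 and 1818 to 2681 and 2770 between clusters 2 and 4, and from 630 and 458 to 1457 and 1284 in the difference of differences, and those lower in cluster 5 than in cluster 8 from 1339 to 2157. DESeq2 gave 590 and 503 between clusters 6 and 11, 1108 and 1042 between clusters 2 and 4, 1062 and 642 between clusters 5 and 8 (1781 and 1339 with edgeR), 354 and 270 in the difference of differences, and 845 higher in cluster 3 than in cluster 12 (1687 with edgeR). With no TMM, 862 were lower in the difference of differences. The causes were not tested. With 1 library left out no residual degrees of freedom remained for a test, and the values of the 9 genes kept their sign where they had been called. Of 74 summed levels of the 9 genes under alternatives, 23 moved by more than the SD of the libraries, among them cluster 6 (17.5 without doublets, 14.5 by profile) and cluster 11 (15.6 by profile). Leaving out 1 library moves a level by less than this SD, so such values could not count as moved. Nor could levels of clusters 1 to 6 and 8 to 12 without cells under 2000 UMIs, since none were removed there. The 23 therefore came from fewer than 74 levels that were free to move. All 54 shares of cells with a UMI moved with the thinning depth. A minimum of 100 UMIs kept the 3 genes nearest to each of the 9. Depth limits the clusters with few UMIs, and with 1 culture the spread between animals is unknown.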

Other observations

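Cluster 9 had, with cluster 7, the highest level of PDGFRA, a marker of fibro-adipogenic progenitors, at 1.63 and 1.53 UMIs per 10000. A list of 5 such markers summed to 35.8 ± 0.53 in cluster 9, 40.7 ± 0.11 over all cells and 158.0 ± 1.4 in cluster 7. This sum did not track PDGFRA, since cluster 8 had a sum of 98.6 ± 2.1 with PDGFRA at 0.267 ± 0.022. Whether cluster 9 holds these progenitors was not tested. The authors inferred that it does from PDGFRA, enriched regulators of early adipogenesis such as PPARG, and signs of active lipogenesis. In cluster 9 the 9 genes were not in step with clusters 6 and 11. RRM2 was at 2.52 ± 0.082 and GINS2 at 0.504 ± 0.044, in the range of cluster 6, while PCNA was at 3.02 ± 0.061 against 4.19 ± 0.15 and RFC4 at 0.423 ± 0.033 against 0.643 ± 0.019. Cluster 9 was not tested against cluster 6, and 13.7% of its cells had high doublet scores.

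Cluster 10 had RRM2 at 1.47 ± 0.11, as high as cluster 2, with PCNA at 0.992 ± 0.019, lower than the 2.93 ± 0.051 of cluster 2. Its median depth was 5398 UMIs per cell, and the difference was not tested.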
